A study of Mus musculus with 12 samples.

Results

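The 9 genes described here encode the subunits of the transcription factor AP-1 and the zinc finger factor Egr1. They are the Fos family (Fos, Fosb, Fosl1 and Fosl2), the Jun family (Jun, Junb and Jund), the related factor Atf3, and Egr1. They, and the gene lists further below, were chosen by name with earlier results of these data known. Counts and medians set beside those of all genes are therefore a description. The probes of the 9 genes were found through the RefSeq accession each carries, with Jund listed under its older name Jund1. All 9, of 27670 genes on the array, were covered by 11 probes, and all 11 probes passed the filter that left 19181 genes for testing. The cells were J1, a mouse embryonic stem cell line. They were infected with lentivirus carrying a hairpin RNA against Ino80 (shIno80) or a non-targeting hairpin (shNT), and RNA was taken 2, 4 or 6 days later, or 48, 96 and 144 hours. Ino80 encodes the motor subunit of INO80, a chromatin remodeller. Each of the 6 groups held 2 arrays, listed by the submitters as biological replicates; how the pair of cultures arose is unstated, so p-values reflect only sample-to-sample spread, possibly technical in part. The labels name 1 hairpin per arm, and cells of both arms had been infected. Cells went from ESGRO medium into M15 medium for infection, per the labels' protocols.

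Across the 12 single-colour arrays, 61.9% to 69.2% of probes were well above background, saturation affected 0 to 2 probes, and processed intensity had a 75th percentile of 1160 to 1640. The deposited records attach 6 of the 12 arrays to different samples, because the arrays at slide positions 2 and 3 are exchanged between shIno80 and shNT on each of the 3 slides; samples are given here as the columns of the deposited value table name them. With this assignment the 6 pairs of arrays of 1 group correlated at 0.9869 to 0.989, against 0.9653 to 0.9868 with the scanner files' own attachments. The Ino80 probe gave 0.59 and 0.86 in shIno80 cells, against 2.75 and 2.68 in shNT cells, at day 2 (log2 relative to the array's 75th percentile), a 3.97-fold lower level, with 4.90-fold and 4.16-fold lower levels at days 4 and 6 (adjusted p = 0.000725, 2.48e-05 and 2.66e-05). Since the assignment was made with the Ino80 values known, they are no independent evidence of the knockdown. With the scanner files' attachments, no gene of the 9 passed the test on any day. Each day was hybridised on its own slide, so within an arm a change between days cannot be told apart from a difference between slides. The position on the slide went with the hairpin, so position and hairpin cannot be told apart either.

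AP-1 is a dimer of leucine zipper proteins. Jun proteins can pair with each other or with Fos proteins, while Fos proteins need a Jun partner, and Atf3 pairs with Jun proteins or with itself, where it often represses. Most of these genes are immediate early genes: growth factors, stress and adhesion signals switch them on through the MAP kinases ERK, JNK and p38, without new protein synthesis. Jund is the member with the steadiest expression in many cells. In mouse embryonic stem cells ERK signalling, which drives Egr1, favours exit from self-renewal, and Jun is known as a barrier to pluripotency in reprogramming.

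The stretches before the start sites of 4 genes, Atf3, Jun, Fosl2 and Fos, are shown. These were called higher in shIno80 than in shNT cells and had such a stretch in the RefSeq table. So did Jund, but its stretch held none of the motifs searched. The table (assembly GRCm38.p6) matched 7 of the 9 genes, Fosl1 and Egr1 being the others. Each line gives the 250 bases before the start, 5′ to 3′ along the gene, with the motif named after it in capitals.
Atf3 (chr1:191183334-191183583, minus strand): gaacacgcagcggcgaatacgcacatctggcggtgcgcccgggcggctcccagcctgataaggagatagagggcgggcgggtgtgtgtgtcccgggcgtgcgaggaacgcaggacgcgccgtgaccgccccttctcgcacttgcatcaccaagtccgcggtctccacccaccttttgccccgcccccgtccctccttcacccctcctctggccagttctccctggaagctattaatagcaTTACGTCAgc
Jun (chr4:95052223-95052472, minus strand): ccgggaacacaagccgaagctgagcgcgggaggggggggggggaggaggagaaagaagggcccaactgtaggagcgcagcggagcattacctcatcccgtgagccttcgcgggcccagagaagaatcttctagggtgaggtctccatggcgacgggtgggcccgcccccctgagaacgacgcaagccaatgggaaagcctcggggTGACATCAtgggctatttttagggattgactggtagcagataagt
Fosl2 (chr5:32136222-32136471, plus strand): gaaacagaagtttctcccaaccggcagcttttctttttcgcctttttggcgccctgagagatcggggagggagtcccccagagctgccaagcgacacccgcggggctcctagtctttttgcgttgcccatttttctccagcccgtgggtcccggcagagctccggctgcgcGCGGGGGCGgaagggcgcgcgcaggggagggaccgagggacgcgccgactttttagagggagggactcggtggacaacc
Fos (chr12:85473640-85473889, plus strand): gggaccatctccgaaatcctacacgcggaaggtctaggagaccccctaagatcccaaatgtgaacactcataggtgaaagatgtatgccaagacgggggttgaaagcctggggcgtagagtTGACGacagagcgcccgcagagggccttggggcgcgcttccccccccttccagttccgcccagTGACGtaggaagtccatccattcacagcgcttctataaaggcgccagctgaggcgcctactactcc

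The capitals mark TGACGTAA, read on the opposite strand, in Atf3, TGACATCA in Jun, GCGGGGGCG in Fosl2, and both copies of TGACG in Fos. TGACGTAA and TGACATCA resemble TGACGTCA, the cyclic AMP response element that Atf and Jun dimers bind, TGACG is the start of that element, and GCGGGGGCG is a form of the site bound by Egr factors. All motifs were searched on both strands. Of 32851 such stretches, 0.447% held TGACGTAA, 2.93% TGACATCA, 2.57% GCGGGGGCG and 17.8% TGACG, which also lies inside TGACGTCA and TGACGTAA. TGACGTCA (1.55% of stretches), TGACTCA (4.46%), the classical AP-1 motif, and the serum response element (1.47%) were found in none of the 7 stretches. Fosb also held GCGGGGGCG and 1 copy of TGACG, and Junb 1 copy of TGACG. Such a match describes the letters of these windows, and no match says nothing about binding elsewhere.

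Most AP-1 genes were higher in shIno80 cells from day 4 on, and Egr1 was lower. At day 2, 3 of the 9 genes were higher (Fosl1, Jun and Jund) and 0 lower, and at an unadjusted p under 0.05 the count was 6. At day 4, 6 were higher (Fos, Fosl1, Fosl2, Jun, Jund and Atf3) and 1, Egr1, was lower, and the same 7 genes passed in the same directions at day 6. Fosb and Junb passed on no day. The test was limma's moderated test on log2 values, with Benjamini-Hochberg adjustment over the 19181 genes and a threshold of 0.05. At day 2, 6.3% of all genes were called higher and 6.33% lower, at day 4 21.2% higher and 21.2% lower, and at day 6 21.8% higher and 28.4% lower. The median log2 fold change of the 9 genes was 0.27, 0.74 and 1.54 at days 2, 4 and 6, beside 0.01, -0.05 and -0.11 over all genes. On the 4 arrays of day 2 alone, none of the 9 passed by limma (6 genes did of all tested, and 3260 had an unadjusted p under 0.05), so the calls at day 2 rest on the spread estimated over all 12 arrays.

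**Figure D1:**
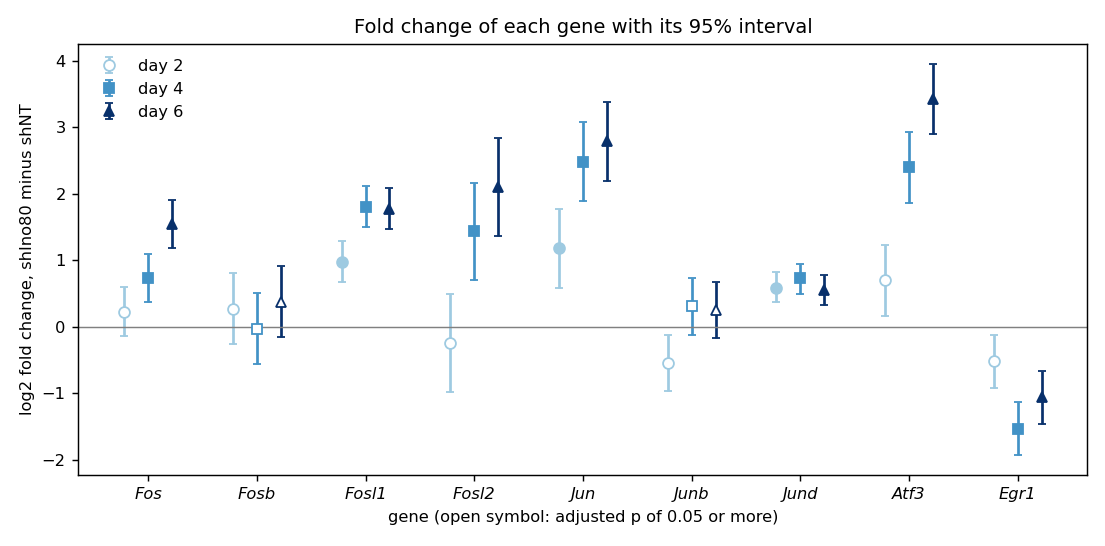
Log2 fold change (shIno80 minus shNT) of each gene at days 2, 4 and 6 from the limma fit on 12 arrays; bars are 95% intervals, and open symbols mark an adjusted p of 0.05 or more. At days 4 and 6 Fos, Fosl1, Fosl2, Jun, Jund and Atf3 lie above 0 and Egr1 below, while Fosb and Junb have intervals that include 0.

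Markers of other cell types also differed between the arms, from day 4 mostly upward for trophoblast markers and in both directions for fibroblast markers. The summed level of 12 trophoblast markers, in units of the array's 75th percentile, was 9.51 to 12.3 in shIno80 cells against 7.96 to 9.88 in shNT cells at day 2, 152 to 164 (shIno80) against 13.2 to 14.2 (shNT) at day 4, and 523 to 546 (shIno80) against 26 to 29.5 (shNT) at day 6. Of the 11 tested, 3 were higher and 2 lower at day 2, 10 and 0 at day 4, and 10 and 1 at day 6, with Elf5 not well above background on any shIno80 array. Of these, Esx1 was 1.86-fold, 7.42-fold and 61.9-fold higher (adjusted p = 0.0028, 4.25e-06 and 2.15e-07), Krt7 was 14-fold and 42.2-fold higher at days 4 and 6 (1.88e-05 and 2.67e-06), and Vgll1 at least 5.36-fold and 13.3-fold. Vgll1 passed the filter only through the shIno80 groups of days 4 and 6, so its calls are no support for the list. At day 2, where it is also counted as higher (log2 1.01), no array of either arm had it well above background. The summed level of 14 fibroblast markers was 1.77 to 1.85 (shIno80) against 2.08 to 2.53 (shNT) at day 2, 5.14 to 5.6 (shIno80) against 1.92 to 2.21 (shNT) at day 4, and 5.98 to 6.71 (shIno80) against 1.74 to 2.05 (shNT) at day 6. Of the 12 tested, 1 was higher and 1 lower at day 2, 7 and 2 at day 4, and 6 and 2 at day 6. The shares of all genes called higher and lower were 6.3% and 6.33%, 21.2% and 21.2%, and 21.8% and 28.4% on these days. Col1a1 (2.41), Dcn (3.42) and S100a4 (3.62) were among those higher at day 4. Thy1 was lower on all 3 days (-1.10, -1.23 and -0.65). Pdgfra was lower at days 4 and 6 (-1.49 and -0.50), with no shIno80 array well above background at day 4. Pdgfrb passed on no day. Lum, called higher at day 4, and Twist2, not called, passed the filter only through shIno80 groups, while Postn was well above background on no array. The 5 embryonic stem cell markers were well above background on all 12 arrays, and their sum was 169 to 174 in shIno80 cells against 231 to 249 in shNT cells at day 2, 57.8 to 65.2 (shIno80) against 219 to 227 (shNT) at day 4, and 61.3 to 73.9 (shIno80) against 238 to 277 (shNT) at day 6. At day 2 only Zfp42 of the 5 passed (-0.53, adjusted p = 0.047), and all 5 were lower at days 4 and 6, including Nanog (-3.70 and -2.69), Esrrb (-2.87 and -2.50) and Zfp42 (-2.01 and -1.82). In these bulk samples fewer cells of a type and less RNA per cell cannot be told apart, and the part of these markers in the differences of the 9 genes was not tested.

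Within the Fos family, Fosl1 differed on all 3 days, Fosl2 and Fos from day 4, and Fosb on none. Fosl1 encodes Fra-1, a Fos protein without the strong activation domain of Fos. Its level was -2.04 and -1.95 in shIno80 cells against -3.01 and -2.95 in shNT cells at day 2, -0.88 and -0.51 (shIno80) against -2.47 and -2.55 (shNT) at day 4, and -1.23 and -1.01 (shIno80) against -2.89 and -2.91 (shNT) at day 6. Every shIno80 array lay above every shNT array, and none of the 5 neighbouring pairs of groups, ordered by level, overlapped. The fold changes were 1.97, 3.51 and 3.43 (log2 0.98, 1.81 and 1.78, each ± 0.14 SE, n = 2 arrays per group; adjusted p = 0.00406, 3.02e-05 and 2.18e-05). Levels of all genes are on the log2 scale relative to the array's 75th percentile and cannot be compared between genes, since probes differ in brightness.

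For Fos, the founding member, the shNT level differed between the days, each of which had its own slide. Its level was -1.86 and -1.62 in shIno80 cells against -1.86 and -2.09 in shNT cells at day 2, -2.06 and -1.77 (shIno80) against -2.81 and -2.51 (shNT) at day 4, and -1.83 and -1.90 (shIno80) against -3.36 and -3.45 (shNT) at day 6. The shIno80 group means were -1.74, -1.92 and -1.86 over the 3 days and overlapped one another. The shNT means were -1.97, -2.66 and -3.41 with no overlap, so the shNT level was lower on each later day. The measured difference was wider on each later day. Its change did not pass limma's test from day 2 to 4 (0.51, adjusted p = 0.178) or from day 4 to 6 (0.80, adjusted p = 0.1). Fos was 1.67-fold higher in shIno80 cells at day 4 and 2.91-fold higher at day 6 (log2 0.74 and 1.54, each ± 0.16 SE; adjusted p = 0.00566 and 9.83e-05), and the day 2 value of 0.23 ± 0.16 did not pass (adjusted p = 0.41). Its probe has 10 spots on each array, at chr12:83478431-83478490 on the mm7 build that the array files use.

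Fosl2, which encodes Fra-2, has 2 probes, at chr5:31185231-31185290 and chr5:31189767-31189826 (mm7, plus strand), both assigned to the same transcript. The brighter probe read -4.82 and -4.45 in shIno80 cells against -4.01 and -4.76 in shNT cells at day 2, -3.06 and -3.16 (shIno80) against -4.65 and -4.44 (shNT) at day 4, and -2.47 and -2.43 (shIno80) against -4.10 and -5.00 (shNT) at day 6. The groups overlapped at day 2 and were apart at days 4 and 6, and the 3 shNT groups overlapped one another. Fosl2 was 2.72-fold and 4.30-fold higher at days 4 and 6 by this probe (log2 1.44 and 2.10, each ± 0.32 SE; adjusted p = 0.0068 and 0.000802). The dimmer probe was well above background on 5 of the 12 arrays: all 4 shIno80 arrays of days 4 and 6, and 1 of the 2 shNT arrays at day 6. It passed the filter only through the shIno80 groups of days 4 and 6, where it is high, so it is described without a test. At day 4 it was at least 9.43-fold higher, with no shNT array well above background, and at day 6 it read -1.06 and -1.24 in shIno80 cells against -5.21 and -6.28 in shNT cells. With the mean of both probes in place of the brighter one, the log2 fold changes at days 4 and 6 were 2.84 and 3.35. A bound of this kind sets the mean of the measured arrays against the lowest signal well above background on the dim arrays, or the dim probe's own signal if higher.

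**Figure D2:**
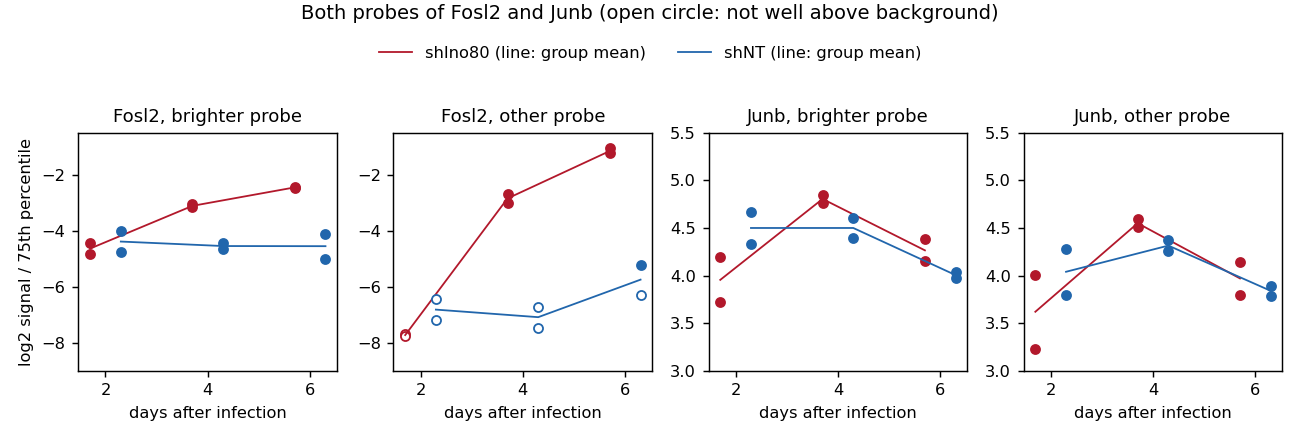
Level of both probes of Fosl2 and of Junb on every array (log2 of signal over the array's 75th percentile), by day after infection, with shIno80 drawn left of shNT; lines join group means, and open circles mark arrays on which the probe was not well above background. Both Fosl2 probes separate the groups at days 4 and 6, the dimmer one more widely, and both Junb probes keep the groups close.

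Fosb was dim, at 3.66% to 6.98% of the array's 75th percentile, though well above background on all 12 arrays. Its level was -4.42 and -4.18 in shIno80 cells against -4.57 and -4.58 in shNT cells at day 2, -4.36 and -4.52 (shIno80) against -4.77 and -4.05 (shNT) at day 4, and -3.93 and -3.84 (shIno80) against -4.47 and -4.06 (shNT) at day 6. At day 4 the 2 shNT arrays lay on either side of both shIno80 arrays. The log2 differences of 0.27, -0.03 and 0.38 (each ± 0.23 SE) did not pass limma's test (adjusted p = 0.536, 0.936 and 0.211). Their 95% intervals were -0.26 to 0.81, -0.56 to 0.51 and -0.15 to 0.92. With 2 arrays per group, true differences of any size inside these intervals remain possible. With normexp background correction and quantile normalization the log2 fold changes of the dim genes were smaller but on the same side: 0.37 and 0.82 for Fos and 0.56 and 0.90 for Fosl2 at days 4 and 6, 0.52 and 1.15 for Fosl1 at days 2 and 6, and 0.52 for Jun at day 2.

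In the Jun family, Jun showed the wide differences, Jund small and steady ones, and Junb none that passed. Jun read -3.04 and -2.63 in shIno80 cells against -4.26 and -3.78 in shNT cells at day 2, -0.33 and -0.11 (shIno80) against -2.86 and -2.54 (shNT) at day 4, and -0.04 and -0.34 (shIno80) against -2.67 and -3.28 (shNT) at day 6. The shIno80 arrays were higher on each day, and the shIno80 groups of days 4 and 6 overlapped each other and lay above all other groups. In shNT cells, too, Jun was higher at day 4 than at day 2, without overlap. Jun was 2.28-fold, 5.59-fold and 6.89-fold higher (log2 1.19, 2.48 and 2.79, each ± 0.26 SE; adjusted p = 0.0231, 0.000147 and 5.87e-05). At day 2 the call was lost without shNT replicate 1 of that day (0.95, adjusted p = 0.0978) and without shIno80 replicate 2 (0.98, adjusted p = 0.117). The Jun probe, with 10 spots per array, lies at chr4:94441779-94441838 (mm7, minus strand).

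Jund read 4.56 and 4.49 in shIno80 cells against 4.01 and 3.85 in shNT cells at day 2, 4.77 and 4.71 (shIno80) against 4.06 and 3.97 (shNT) at day 4, and 4.90 and 5.02 (shIno80) against 4.42 and 4.39 (shNT) at day 6. Each shIno80 group lay above the shNT group of its day, and both arms were highest at day 6. The fold changes of 1.51, 1.66 and 1.47 (log2 0.59, 0.73 and 0.55, each ± 0.10 SE; adjusted p = 0.00862, 0.000567 and 0.00189) passed on all 3 days.

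Junb read 3.72 and 4.19 in shIno80 cells against 4.33 and 4.67 in shNT cells at day 2, 4.76 and 4.85 (shIno80) against 4.39 and 4.61 (shNT) at day 4, and 4.38 and 4.15 (shIno80) against 3.97 and 4.04 (shNT) at day 6. On each day the groups did not overlap, with shIno80 lower at day 2 and higher afterwards. The log2 differences of -0.54, 0.31 and 0.26 (each ± 0.18 SE; 95% intervals -0.97 to -0.12, -0.12 to 0.73 and -0.17 to 0.68) did not pass (adjusted p = 0.0981, 0.224 and 0.285). After quantile normalization they were -0.46, 0.44 and 0.43 and passed (adjusted p = 0.0462, 0.0213 and 0.0211). Its second probe, whose position overlaps the first, gave -0.42, 0.24 and 0.13.

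Atf3, a gene induced by many stresses, had the widest difference of the 9 at day 6 by each gene's brightest probe. Its level was -1.92 and -2.39 in shIno80 cells against -2.88 and -2.83 in shNT cells at day 2, -0.19 and 0.11 (shIno80) against -2.54 and -2.35 (shNT) at day 4, and 1.17 and 1.16 (shIno80) against -1.94 and -2.59 (shNT) at day 6. The shIno80 level was higher on each later day with no overlap, whereas the shNT groups of days 4 and 6 overlapped. Atf3 was 5.26-fold higher at day 4 and 10.8-fold higher at day 6 (log2 2.40 and 3.43, each ± 0.23 SE, adjusted p = 1e-04 and 1.27e-05). At day 6, 0.949% of all genes were as far or farther above. For the other members called higher at day 6 this share ran from 2.01% for Jun to 21.2% for Jund, with 7.03% for Fos. The day 2 value of 0.70 did not pass (adjusted p = 0.091), but passed without either shNT array of day 6 (adjusted p = 0.0496). Its single probe lies at chr1:190724174-190724233 (mm7, minus strand). The remaining probes lie at chr19:5350302-5350361 for Fosl1, chr7:16985502-16985561 for Fosb, chr8:69154598-69154657 for Jund and chr8:83563097-83563156 for the brighter Junb probe (mm7).

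**Figure D3:**
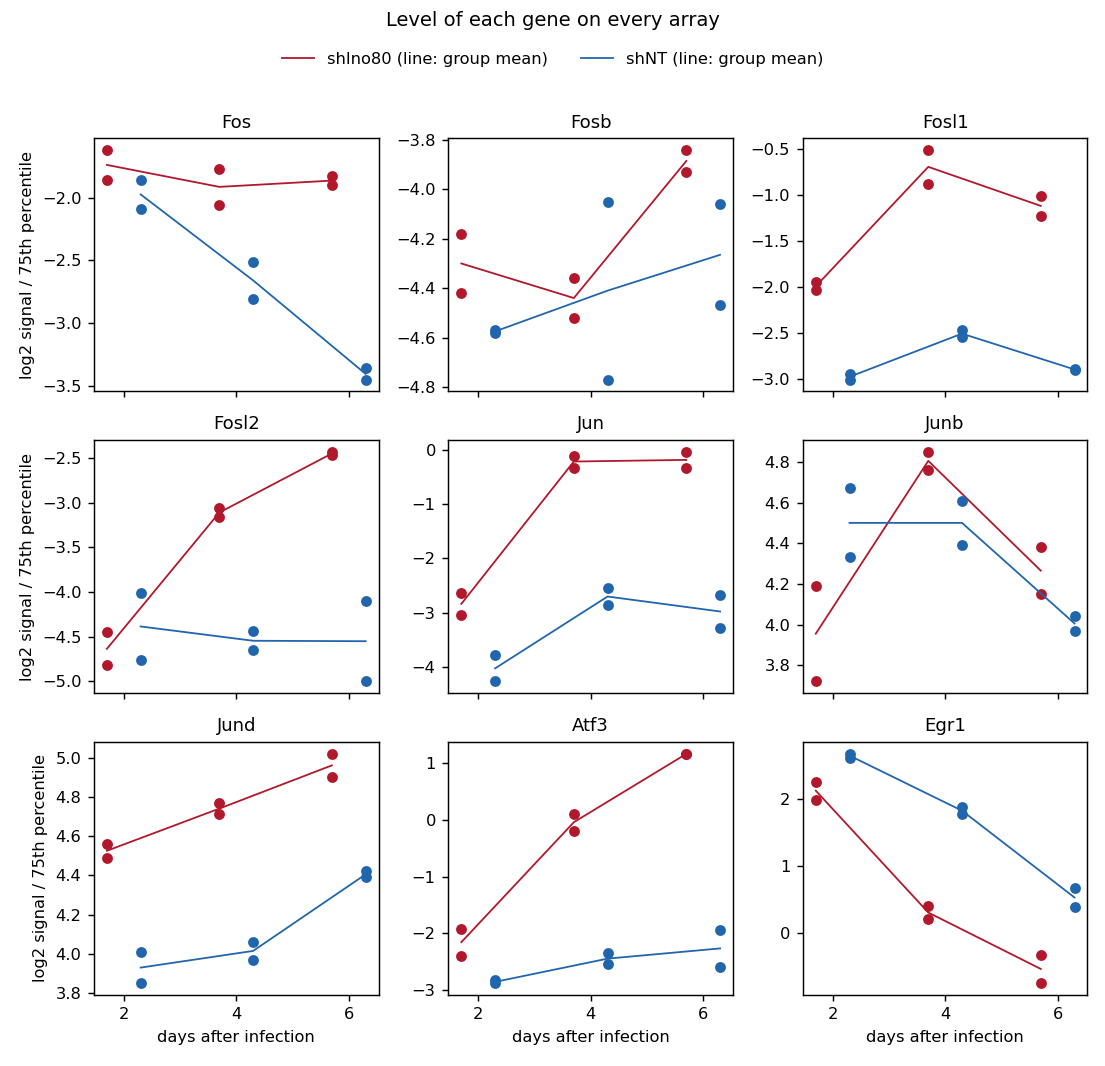
Level of each of the 9 genes on every array (log2 of signal over the array's 75th percentile; scales differ between panels), by day after infection, with shIno80 drawn left of shNT and lines through group means. Each day had its own slide. Fos stays level in shIno80 cells while shNT is lower on each later day. Jun, Fosl2 and Atf3 are higher at day 4 than at day 2 in shIno80 cells. In shNT cells Jun and Atf3 are also higher at day 4 than at day 2, by less. Egr1 is lower on each later day in both arms, with shIno80 below.

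Egr1, which ERK induces through serum response factor and Elk factors, went the other way. It read 1.99 and 2.26 in shIno80 cells against 2.62 and 2.68 in shNT cells at day 2, 0.20 and 0.40 (shIno80) against 1.77 and 1.88 (shNT) at day 4, and -0.33 and -0.76 (shIno80) against 0.66 and 0.39 (shNT) at day 6. Both arms were lower on each later day, and on each day both shIno80 arrays lay below both shNT arrays. It was 2.88-fold lower at day 4 and 2.09-fold lower at day 6 (log2 -1.53 and -1.06, each ± 0.17 SE; adjusted p = 0.000223 and 0.0012), and at day 2 the value of -0.52 did not pass (adjusted p = 0.0917), though it did with normexp (-0.46, adjusted p = 0.0289) and in the deposited value table (-0.46, adjusted p = 0.0469). The related genes Egr2 and Egr4, named here after their values were seen, were higher at day 4 (log2 1.80 ± 0.28 and 2.46 ± 0.41 SE; adjusted p = 0.00109 and 0.00162). Egr2 was also higher at day 2 (1.62, adjusted p = 0.00927) and Egr4 at day 6 (1.38, adjusted p = 0.0216).

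The knockdown difference itself changed between days 2 and 4 for 5 of the 9 genes, 4 of them upward and 1 downward, where 15.3% of all genes were called. The change was 1.70 ± 0.33 SE for Atf3 (adjusted p = 0.012), 1.69 ± 0.45 for Fosl2 (0.0402), 1.30 ± 0.37 for Jun (0.0489), 0.83 ± 0.19 for Fosl1 (0.0239) and -1.0 ± 0.25 for Egr1 (0.0292), on the log2 scale. With the mean of both Fosl2 probes, the change in Fosl2 was 3.41. This is given without a test, since the dimmer probe passed the filter only through shIno80 groups. Junb (0.85, adjusted p = 0.0642), Fos (0.51, 0.178), Jund (0.13, 0.589) and Fosb (-0.30, 0.609) did not pass. The change in Junb passed with quantile normalization (adjusted p = 0.0123), with normexp (0.00679), in the deposited value table (0.0255), with only probes well above background on all 12 arrays (0.0409) and without shIno80 replicate 2 of day 2 (0.0301). These calls depended on single arrays. Leaving out each of the 12 arrays in turn, Atf3 passed in 11, Fosl1 in 7, Egr1 in 5, and Fosl2 and Jun in 3 each, with values of 1.46 to 1.93, 0.65 to 1.01, -1.14 to -0.87, 1.31 to 2.06 and 1.06 to 1.54. Without shIno80 replicate 2 of day 4 none of the 9 passed, Atf3 then being at 1.55 (adjusted p = 0.0513), and without either shNT array of day 4 Atf3 alone did. With replicate number as a block, the change in Jun did not pass (adjusted p = 0.0647). Between days 4 and 6, where 3.75% of all genes were called, 0 of the 9 passed limma's test and 2, Atf3 (1.03, adjusted p = 0.141) and Fos (0.80, adjusted p = 0.1), had an unadjusted p under 0.05; both passed in the deposited value table and Atf3 with normexp.

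Across the 12 arrays, which share groups, Jun and Atf3 correlated at 0.95, Fosl2 and Atf3 at 0.94, Fosl1 and Jun at 0.93, and Atf3 and Egr1 at -0.85 (Pearson, as a description). Fos correlated at 0.33 with Jun and 0.39 with Atf3. Among 5565 named genes with a standard deviation of at least 0.5, the levels most like those of Atf3 were Castor2 (0.996), Efemp1 (0.991) and Ppl (0.99). Those most like Jun were Gpsm1 (0.996), Nsg1 (0.993) and Syde2 (0.993), and those most like Egr1 were Kmt2c (0.987), Vim (0.987) and Msi2 (0.986). The nearest were Rap2b (0.983), Hic1 (0.981) and Cdkl1 (0.981) for Fosl1, and Glrb (0.978), Krt20 (0.976) and Cnbd2 (0.976) for Fosl2. For Fos they were Fas (0.967), Dusp13 (0.957) and Slc35c1 (0.955), and for Jund Tes (0.985), Lrp8 (0.982) and Mmd (0.978). Dusp13 passed the filter only through shIno80 groups. No shNT array of days 4 and 6 had it well above background, so its correlation rests partly on signals near background.

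Other immediate early genes moved in both directions, mostly upward. Of the 26 tested of 28 listed, 6 were higher and 4 lower at day 2, 19 and 7 at day 4, and 17 and 6 at day 6, with median log2 fold changes of 0.27, 1.24 and 1.05. Over all genes, 6.3% were higher and 6.33% lower at day 2, 21.2% and 21.2% at day 4, and 21.8% and 28.4% at day 6. The 3 largest changes were those of Ccn1, a matrix protein and YAP target (1.83, 3.66 and 3.74; adjusted p = 0.000683, 4.25e-06 and 1.5e-06), of Nr4a2, an orphan nuclear receptor (1.15, 3.22 and 3.78; adjusted p = 0.00205, 4.25e-06 and 1.17e-06), and of Ier3, a survival factor (0.28, 1.91 and 2.80; adjusted p = 0.714, 0.00341 and 0.000363). Among those that went down, Mcl1 (-1.18, -1.08 and -1.19) and Sgk1 (-0.87, -1.36 and -0.67) were called lower on all 3 days. Egr3 and Nr4a3 did not pass the filter.

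Other dimer partners of AP-1 included Maf and Batf proteins. Of the 11 listed, 3 were higher and 0 lower at day 2, 3 and 0 at day 4, and 2 and 2 at day 6, with medians of -0.01, 0.16 and 0.14. Over all genes, 6.3% were higher and 6.33% lower at day 2, 21.2% and 21.2% at day 4, and 21.8% and 28.4% at day 6. Mafk, a small Maf protein, was higher on all 3 days (0.69, 1.45 and 1.70; adjusted p = 0.00725, 3.05e-05 and 1.04e-05). Maff, another, was higher at day 4 (1.77, adjusted p = 0.000759) and not past the threshold at days 2 and 6 (0.38 and 0.14, adjusted p = 0.407 and 0.682). Batf, an inhibitor of AP-1 in several settings, was at least 2.19-fold lower at day 6, where no shIno80 array was well above background (adjusted p = 0.000638), with -0.55 and -0.40 at days 2 and 4 (adjusted p = 0.116 and 0.145).

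Among 18 tested of 19 kinases and factors that act upstream, 1 was higher and 0 lower at day 2, 5 and 3 at day 4, and 6 and 3 at day 6, with medians of 0.02, 0.16 and 0.18. The shares of all genes called higher and lower were 6.3% and 6.33%, 21.2% and 21.2%, and 21.8% and 28.4% on these days. Elk3, a ternary complex factor of the serum response element, was higher at days 4 and 6 (1.29 and 2.30, adjusted p = 0.00069 and 2.52e-05) and at 0 at day 2 (adjusted p = 0.997). Mapk3, which encodes ERK1, was lower at days 4 and 6 (-0.88 and -1.32, adjusted p = 0.0173 and 0.00208) and at -0.07 at day 2 (adjusted p = 0.897). Mrtfb, a coactivator of serum response factor, was higher by its brightest probe (1.18, 1.21 and 1.93; adjusted p = 0.0156, 0.00333 and 0.00022), while its other probes gave 0.16, -0.28 and 0.56 and 0.23, 0.81 and 0.91, so the probes disagree. Elk1 did not pass the filter.

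Of 14 tested of 19 genes known as AP-1 targets, 1 was higher and 2 lower at day 2, 8 and 5 at day 4, and 8 and 3 at day 6, with medians of 0.12, 1.03 and 1.49. The shares of all genes called higher and lower were 6.3% and 6.33%, 21.2% and 21.2%, and 21.8% and 28.4% on these days. Cd44, a hyaluronan receptor, was at least 2.45-fold higher at day 2, where no shNT array was well above background, and 7.20-fold and 9.61-fold higher at days 4 and 6 (adjusted p = 0.0151, 6.25e-05 and 2.24e-05), while its second probe did not pass at day 2 (0.93, adjusted p = 0.0707). Plau, urokinase, was at least 2.52-fold and 2.98-fold higher at days 4 and 6, with no array well above background at day 2. It and Areg, both among the 8 called higher at days 4 and 6, passed the filter only through shIno80 groups, so their calls are no support for a rise of the list. The medians of the list include both genes and are higher for it, so they are likewise no support for a rise. Spp1, osteopontin, was lower on all 3 days (-0.57, -2.93 and -2.84; adjusted p = 0.022, 4.25e-06 and 2.08e-06). The matrix metalloproteinase genes Mmp3, Mmp10 and Mmp13, with Il6 and Ereg, did not pass the filter.

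All 9 listed corepressors and targets of Egr1 were tested, of which 1 was higher and 1 lower at day 2, 2 and 5 at day 4, and 3 and 2 at day 6, with medians of -0.25, -0.54 and -0.32. Over all genes, 6.3% were higher and 6.33% lower at day 2, 21.2% and 21.2% at day 4, and 21.8% and 28.4% at day 6. F3, tissue factor, was higher on all 3 days (0.96, 1.73 and 4.07; adjusted p = 0.00152, 1.18e-05 and 4.6e-07). Nab1, a corepressor that binds Egr1, was higher at days 4 and 6 (0.70 and 1.48, adjusted p = 0.049 and 0.00131) and at -0.25 at day 2 (adjusted p = 0.604). The other listed corepressor, Nab2, was lower at days 4 and 6 (-1.23 and -0.57, adjusted p = 0.00166 and 0.0469). Fn1, fibronectin, was lower at day 4 (-1.31, adjusted p = 0.00644) and did not pass at days 2 and 6 (-0.06 and -0.38, adjusted p = 0.931 and 0.301).

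**Figure D4:**
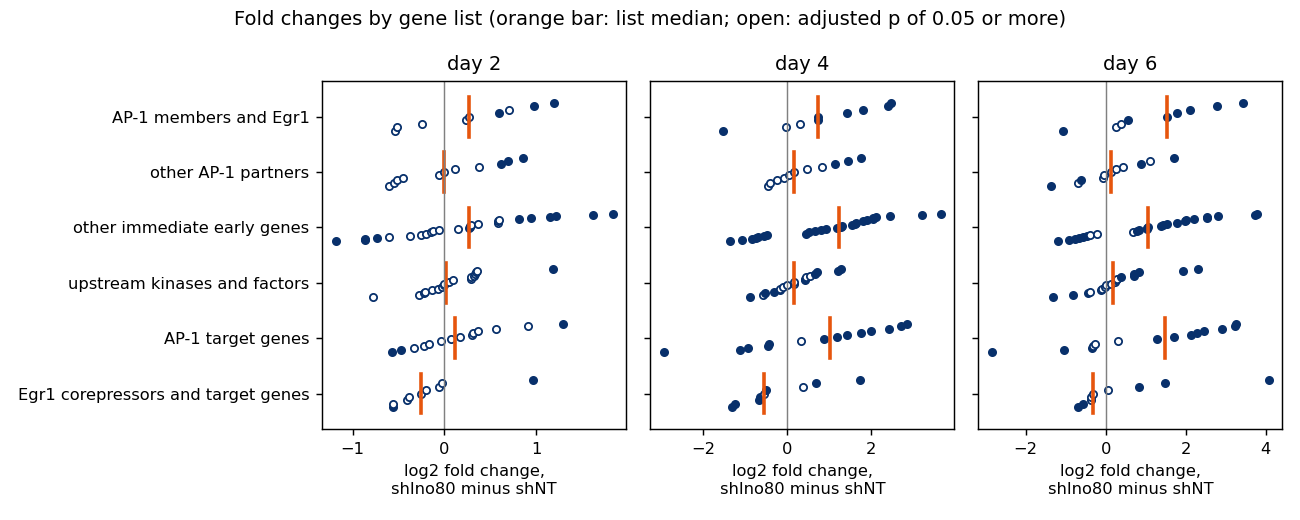
Log2 fold change (shIno80 minus shNT) of each tested gene, by list, at days 2, 4 and 6; orange bars are list medians, and open circles mark an adjusted p of 0.05 or more. At day 4 the medians are 0.74 for the AP-1 genes with Egr1, 1.24 for other immediate early genes, 1.03 for AP-1 targets, 0.16 for both other AP-1 partners and upstream factors, and -0.54 for the Egr1 list. The AP-1 target median includes Plau and Areg, which passed the filter only through shIno80 groups and raise it.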

How the data were processed

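The deposited scanner files give each spot's processed intensity (Agilent software Feature Extraction 9.5.3.1), background-subtracted and detrended within each array and not scaled between arrays, per the file headers. Log2 values, uncentred, make up the deposited value table (column medians 7.3 to 7.56), each column matching 1 scanner file within a relative tolerance of 1e-06 up to 1 factor per array, whose choice is unstated. This match decided which sample an array is, and the scanner files' attachments were an alternative.

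Here, values were log2 of processed intensity minus the array's 75th percentile. Of 41174 probes, 125 were dropped for marked spots and 28652 kept, which 1 group or more had well above background in both its arrays; a gene is its kept probe with the highest mean (19181 genes). Accessions named 22951 probes through RefSeq (GRCm38.p6), symbols 6659 and older symbols 3109; 8455 kept the file's name. limma 3.58.1 in R 4.3.3 fitted 6 group means on 12 arrays, with Benjamini-Hochberg adjustment over all genes at 0.05, and was tested on simulated data. The number of arrays limits the precision. Slide went with day and slide position with hairpin.

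Replicate numbers did not pair the samples by the labels, so no block was in the main model. Named from each list were the 3 genes past the threshold with the largest change on any day, and for likeness the 3 genes with the highest Pearson correlation to each gene called on at least 1 day. The 9 genes and the lists were chosen with earlier results of these data known. Alternatives were median and quantile scaling, normexp (offset 50), the value table, no or a stricter dim filter, the mean of a gene's probes, marked spots kept, 1 slide alone, a replicate block and leaving out each array.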

Additional observations from a re-analysis of the deposited data

Results flagged for a closer look

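The difference between shIno80 and shNT cells was not the same at day 4 as at day 2 for 5 of the 9 genes, by the interaction term of the limma model (difference at day 4 minus difference at day 2, log2). It was 1.70 for Atf3, 1.69 for Fosl2, 1.30 for Jun, 0.83 for Fosl1 and -1.0 for Egr1, with adjusted p = 0.012, 0.0402, 0.0489, 0.0239 and 0.0292. All but that of Atf3 failed on leaving out one or another of several single arrays, and that of Atf3 failed on leaving out shIno80 replicate 2 of day 4.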

How the results depend on the processing

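With the samples as the scanner files are attached, 0 of the 9 genes passed at day 2, 4 or 6 or in the change from day 2 to day 4, and 2, 8 and 0 of all genes were called at days 2, 4 and 6. The log2 differences that then took the other sign were -0.21 (Atf3), 0.16 (Egr1), 0.41 (Junb) and -0.11 (Jund) at day 2, 0.16 (Egr1), 0.28 (Fosb) and -0.07 (Jund) at day 4, -0.33 (Atf3), -0.08 (Fos), -0.43 (Fosl2), -0.45 (Jun) and -0.07 (Junb) at day 6, 0.16 (Fosb), -0.18 (Jun) and -0.25 (Junb) from day 2 to 4, and -0.57 (Atf3) and -0.38 (Fos) from day 4 to 6. Under the other alternatives the 7 genes called at days 4 and 6 kept their direction and passed throughout. At day 2 the count of 3 was 5 with normexp, which added Egr1 and Junb, 2 to 4 on leaving out an array, and 0 on the slide's 4 arrays alone. Jun at day 2 did not pass without the dim filter (adjusted p = 0.0502). From day 2 to 4 the count of 5 was 1 without the dim filter and 0 to 5 on leaving out each array, and Fosl1 did not pass with median scaling (adjusted p = 0.0607). From day 4 to 6 the count of 0 was 1 with normexp and 2 in the value table. The cause of these changes was not tested. On leaving out 1 array, Fosl2 at day 2 ranged from -0.62 to 0.13, Fosb at day 4 from -0.39 to 0.33, and Fosb from day 2 to 4 from -0.66 to 0.06. With the replicate block, counts were 3, 7, 7 and 0 at days 2, 4, 6 and from day 4 to 6, and 4 from day 2 to 4, losing Jun; deviations of same-numbered arrays correlated at -0.17 to 0.3, with 5 of 15 pairs over 0.1. Over all genes, 2423 were called at day 2, against 1390 with no dim filter and 1098 to 2040 leaving out 1 array; 2943 from day 2 to 4, against 1855 and 1483 to 2794; and 719 from day 4 to 6, against 251, 1498 with normexp, 1089 in the value table and 201 to 818. The share of calls that were higher was 50% at day 4, against 39.6% with median scaling, 43.4% at day 6 against 62% in the value table, and 44.1% from day 4 to 6 against 77.1% in the value table and 55.2% with median scaling. Median scaling put the median of all genes at -0.19 at day 4 (-0.05 in the main scaling), and the value table put it at 0.06 at day 6 (-0.11 in the main scaling). Counts in the other lists differed by over 1.5 times from those given in 91 of 368 comparisons of list, direction and alternative at day 2, 45 of 368 at day 4 and 48 of 368 at day 6, of which 13, 13 and 15 came from the scanner files' attachments.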
